A study of Mus musculus with 2 samples.

Results

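The receptors for serotonin, dopamine, noradrenaline, acetylcholine and histamine were described at the transcript level in hippocampal RNA of endothelial *CDK5*-deficient and control mice. The set holds 37 receptor genes, each taken as the row of the deposited table that carries its symbol. All 37 were found among 55573 gene rows. The study compared 1 library of *CDK5f/f* mice, labelled untreated, with 1 library of *Cdh5-CreERT2;CDK5f/f* mice, labelled as treated with tamoxifen. Both are labelled hippocampus of the C57BL/6 strain, and the labels give neither the age nor the number of mice. Both genotypes carry the loxP-flanked *CDK5* allele. In the mutant, the *Cdh5* promoter drives Cre recombinase, switched on by tamoxifen, in endothelium, so the neurons and glia that carry these receptors are not the cells targeted. With 1 library per genotype there is no replicate and no test, and genotype and tamoxifen cannot be told apart.

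The hippocampus receives serotonin fibres from the raphe nuclei, noradrenaline fibres from the locus coeruleus, acetylcholine fibres from the medial septum and histamine fibres from the hypothalamus. Most of the receptors for these transmitters are coupled to G proteins. Gs raises cyclic AMP, Gi/o lowers it and opens potassium channels, and Gq releases calcium through phospholipase C. The nicotinic receptors and the serotonin receptor 5-HT3 are instead ion channels built of several subunits. Through these receptors the ascending fibres set how readily hippocampal neurons fire and how their synapses are strengthened.

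The libraries hold 19451827 counts in the control and 18900847 in the mutant. Levels are given as FPKM, the count scaled by exonic gene length and by the total of the library, with an exact 95% Poisson interval of the count where one is quoted. Ratios are mutant over control, of counts per library total, with an exact 95% interval. Such intervals hold the error of counting alone, and the spread among mice was not measured. *Cdk5* had 1261 and 1257 counts, which in RNA of all cell types does not check its loss in endothelium. *Xist*, the RNA of the inactive X chromosome, had 15070 counts in the control and 34 in the mutant, and Y-linked *Ddx3y* 0 and 771, so that the sex of the samples cannot be told apart from the genotype. In bulk RNA, fewer cells of a type and less RNA per cell cannot be told apart either.

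The 37 receptors together took 0.0937% of the control counts and 0.1% of the mutant counts, with a summed level of 226 and 235 FPKM. Few receptors made up most of this. In the control library 5 receptors reached 10 FPKM, 22 lay from 1 to below 10 and 10 lay below 1, and the first 3 held 50.1% of the summed FPKM. In the mutant library the numbers were 7, 21 and 9, and the first 3 held 45.1%. The order of the receptors was much alike in both libraries. Of the 37 genes, 24 moved by at most 1 place and 8 of the first 10 were shared. Spearman's rho of the FPKM was 0.983 across the 37 genes, beside 0.968 across the 14778 genes that reached 1 FPKM in either library. The values within a library share its depth, and genes are not independent replicates.

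**Figure D1:**
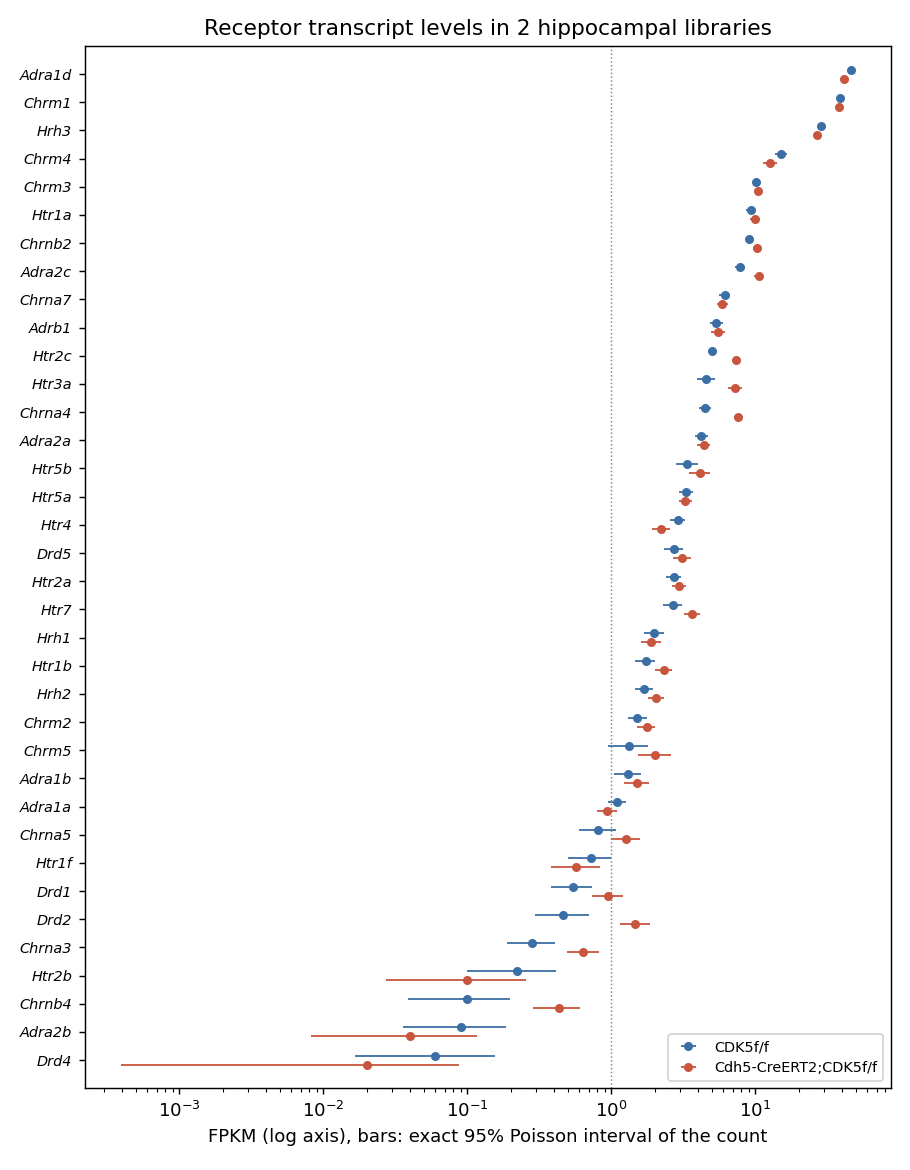
FPKM on a log axis of 36 receptor genes in the control (blue) and mutant (red) library, ordered by the control level, with the exact 95% Poisson interval of each count as bars. *Drd3*, with 0 counts in both, is not drawn, the dotted line marks 1 FPKM, and *Adra1d*, *Chrm1* and *Hrh3* lead in both libraries.

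*Adra1d*, the gene of the Gq-coupled alpha-1D adrenergic receptor, came first with 46.2 FPKM in the control and 41.0 in the mutant. *Chrm1*, the M1 muscarinic receptor of pyramidal neurons, followed with 38.7 and 38.2 FPKM, and *Hrh3*, the histamine H3 receptor that also acts as an autoreceptor, with 28.6 and 26.7. *Chrm4*, the Gi/o-coupled M4 receptor, took rank 4 in both libraries with 15.2 and 12.7 FPKM. In the control library the intervals of these 4 genes did not overlap from one rank to the next. In the mutant library those of *Adra1d* and *Chrm1* overlapped, at 39.0 to 43.2 and 37.1 to 39.3 FPKM. Below the fifth rank most neighbours could not be ordered at this depth. The intervals of 30 of 36 neighbouring pairs overlapped in the control library and those of 31 of 36 in the mutant library. The order also depends on gene length. By counts, without length, *Chrm1* came first with 4880 and 4688 counts, and *Adra1d*, with a short exonic length of 1899 bases, took rank 3 in the control and rank 4 in the mutant.

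For the comparison of the genotypes, a gene that reached 1 FPKM in either library was called higher or lower when log2(FPKM + 1) differed by 1.5-fold or more. This minimum was met by 29 of the 37 receptors, 26 of them in both libraries. *Drd2* and *Chrna5* met it only in the mutant library and *Adra1a* only in the control library. Of the 29, 2 were higher in the mutant library, *Drd2* and *Chrna4*, which is 6.9% beside a background of 3.65% of all genes tested. None was lower, beside a background of 3.16%. The 6.9% rests on 2 genes, of which *Drd2* met the minimum only through the mutant library, where it was higher. Among genes with a mean of 1 to 10 FPKM, where most of the receptors lie, the background was 3.86% higher and 3.24% lower. The median log2 ratio of the 29 was 0.11, beside 0.00 for all genes tested, and 20 of them (69%) lay above 0, beside 50.3% of all genes tested. Since adding 1 to the FPKM shrinks the ratios of weak genes, counting intervals were read as well. Among the 35 receptors with at least 10 counts over both libraries, the interval lay above 1 for 13 (37.1%) and below 1 for 4 (11.4%). Over all genes with at least 10 counts the shares were 17.4% and 16.1%, and 50.3% of those genes had a ratio above 1. Of the 13 receptors, *Chrnb4* (7 and 30 counts) met the minimum of 10 only through the mutant library. The 4 genes below 1 were *Adra1d*, *Chrm4*, *Hrh3* and *Htr4*, of which the first 3 are among the 4 most abundant receptors.

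**Figure D2:**
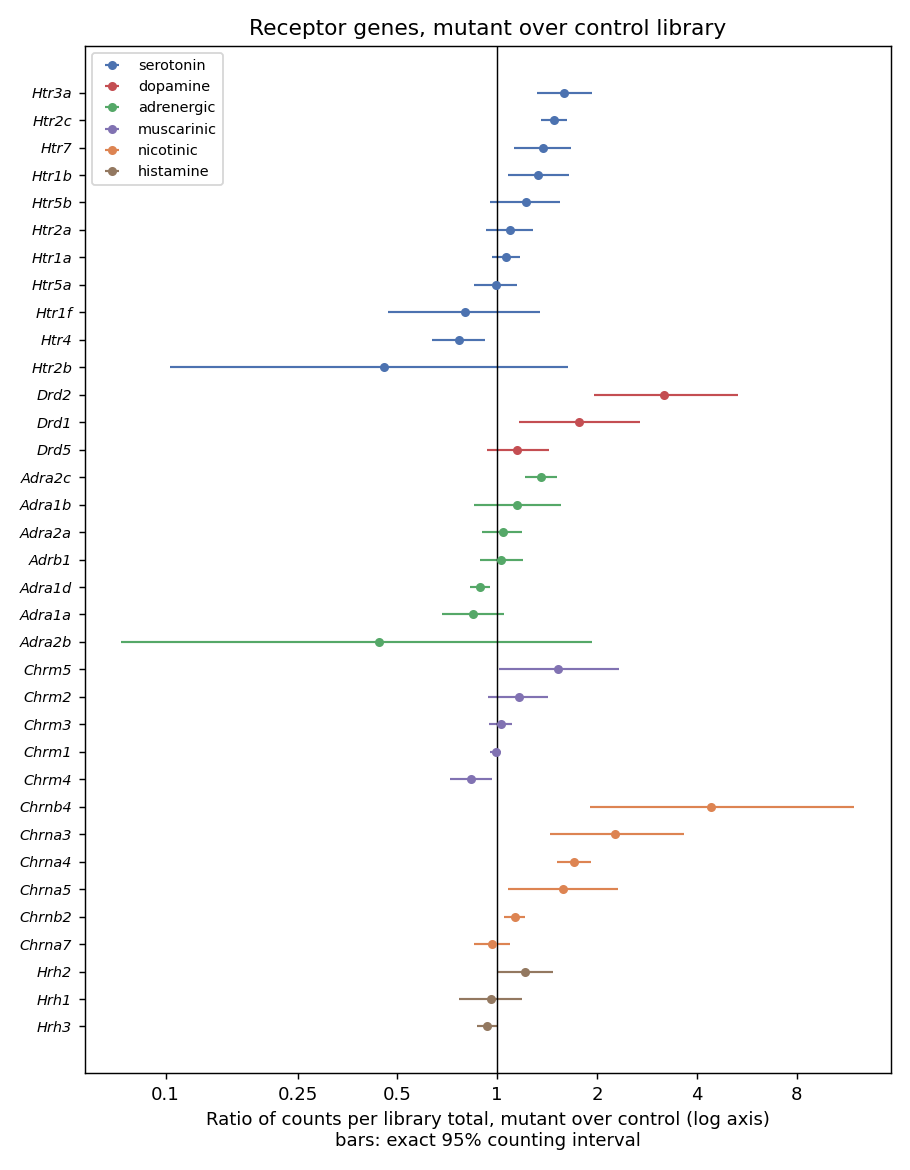
Ratio of counts per library total, mutant over control, on a log axis for the 35 receptors with at least 10 counts, coloured by family, with exact 95% counting intervals as bars. The ratios run from 0.441 for *Adra2b* to 4.41 for *Chrnb4*. Of the 6 nicotinic genes, 5 have intervals above 1, beside 17.4% of all genes. *Chrnb4* (7 and 30 counts) met the minimum of 10 only through the mutant library.

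The nicotinic, serotonin and dopamine families had higher summed levels in the mutant library. The 6 nicotinic subunits summed to 20.9 FPKM in the control and 26.1 in the mutant, and the 11 serotonin receptors to 36.5 and 43.7. The 5 dopamine receptors were the weakest family, with 3.77 and 5.56 FPKM. The count ratio was 1.22 (1.16 to 1.29) for the nicotinic, 1.21 (1.15 to 1.26) for the serotonin and 1.44 (1.21 to 1.71) for the dopamine family. Within the serotonin family, 4 of 11 genes had an interval above 1 and 1 below 1, beside 17.4% and 16.1% of all genes. Most of the family's difference in counts lies in *Htr2c*, which held 904 of 3325 counts in the control and 1302 of 3899 in the mutant. The adrenergic, muscarinic and histamine families differed by less, and the summed FPKM of each was somewhat lower in the mutant. The 7 adrenergic receptors summed to 66.1 and 64.0 FPKM, the 5 muscarinic receptors to 66.8 and 65.1, and the 3 histamine receptors to 32.3 and 30.6. Their count ratios of 1.00, 0.994 and 0.961 had intervals that include 1. Without its most abundant member, the adrenergic sum was 19.9 and 23.0 FPKM and the histamine sum 3.69 and 3.96, so that both turned direction. By coupling, the 7 channel genes had a count ratio of 1.25 (1.18 to 1.31), while the 10 Gq-coupled genes had 1.03 (0.997 to 1.06) and the 13 Gi/o-coupled genes 1.04 (0.997 to 1.08). The ratio of the 6 Gs-coupled genes was 1.09 (1.01 to 1.18). *Htr5b* was left out of these classes, because its coupling is not well known. The share of the summed receptor FPKM held by the channel genes was 11.2% in the control and 14.2% in the mutant.

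**Figure D3:**
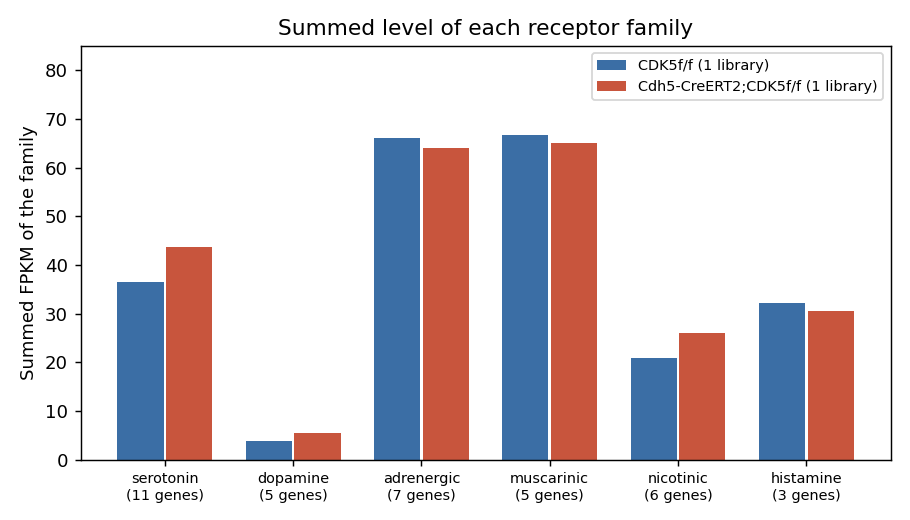
Summed FPKM of each receptor family in the control (blue) and mutant (red) library, 1 library each, so that no error bars can be drawn. The nicotinic, serotonin and dopamine bars are higher in the mutant, and the adrenergic, muscarinic and histamine bars are slightly lower.

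Nicotinic receptors are pentamers of alpha and beta subunits. The pair alpha4 and beta2 forms the high-affinity receptor of the brain, and alpha7 forms a receptor on its own that is abundant in the hippocampus. *Chrna4* had 438 counts in the control and 723 in the mutant (4.48 and 7.62 FPKM, log2 ratio 0.65), a ratio of 1.70 (1.51 to 1.92). Its partner *Chrnb2* had 1475 and 1615 counts (9.05 and 10.2 FPKM), a ratio of 1.13 (1.05 to 1.21). *Chrna7* had 539 and 504 counts (6.15 and 5.92 FPKM), and its interval of 0.851 to 1.09 includes 1. By FPKM, *Chrna4* thus passed *Chrna7* in the order, whereas by the length of the longest transcript *Chrna7* was ahead in both libraries. The FPKM of *Chrna4* was 0.495 of that of *Chrnb2* in the control and 0.747 in the mutant. *Chrnb2* shares 1365 exonic bases with *Adar*, an RNA-editing gene on the opposite strand with 3523 and 3330 counts. The sources used here do not say whether counting used strand, so part of the *Chrnb2* counts may belong to *Adar*.

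The other 3 nicotinic members lie side by side on chromosome 9 of GRCm38. *Chrna5* (chr9:54980880-55007779, plus strand), *Chrna3* (chr9:55010111-55026562, minus strand) and *Chrnb4* (chr9:55028154-55048779, minus strand) span 67.9 kb, with gaps of 2331 and 1591 bases between them. Alpha3 and beta4 form the receptor of autonomic ganglia and of the medial habenula, and alpha5 is an accessory subunit. *Chrna5* had 49 and 75 counts (0.81 and 1.27 FPKM), a ratio of 1.58 (1.08 to 2.31). *Chrna3* had 29 and 64 counts (0.28 and 0.64 FPKM), a ratio of 2.27 (1.44 to 3.65), and *Chrnb4* 7 and 30 counts (0.10 and 0.43 FPKM), a ratio of 4.41 (1.9 to 11.9). All 3 genes of the cluster thus had more counts in the mutant library, at levels near or below 1 FPKM. *Chrna3* and *Chrnb4* did not reach the minimum for a call.

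The sequence before an annotated RefSeq start is shown for *Drd2* and *Chrna4*, the receptors past 1.5-fold, and for *Chrna5* and *Chrna3* of the cluster. It comes from the RefSeq promoter windows of GRCm38.p6, which matched 31 of the 37 receptors, and is cut to the part of the 250 bases upstream that overlaps no exon of GENCODE M21. The window of *Chrna4* belongs to a start inside the gene as the table bounds it (chr2:181018380-181043546). The window of *Chrnb4* lies almost wholly in such an exon and is not shown. Capitals mark the GC box, the letters GGGCGG or, for the opposite strand, CCGCCC. No other motif is marked, and the marked matches do not overlap each other.
*Drd2*, chr9:49340153-49340402, plus strand: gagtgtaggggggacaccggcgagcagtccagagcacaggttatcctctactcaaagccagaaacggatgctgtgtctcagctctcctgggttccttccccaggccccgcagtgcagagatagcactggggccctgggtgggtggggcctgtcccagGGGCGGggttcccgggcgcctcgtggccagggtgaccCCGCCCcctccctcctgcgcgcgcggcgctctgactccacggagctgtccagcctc
*Chrna4*, chr2:181039306-181039427, minus strand: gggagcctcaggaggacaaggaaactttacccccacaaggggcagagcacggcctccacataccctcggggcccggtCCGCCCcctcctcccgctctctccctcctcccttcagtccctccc
*Chrna5*, first start, chr9:54980630-54980879, plus strand: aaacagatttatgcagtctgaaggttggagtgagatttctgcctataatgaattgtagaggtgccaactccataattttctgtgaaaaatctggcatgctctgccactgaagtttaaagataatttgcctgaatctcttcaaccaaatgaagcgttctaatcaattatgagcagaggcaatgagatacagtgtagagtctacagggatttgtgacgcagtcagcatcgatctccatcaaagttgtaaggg
*Chrna5*, second start, chr9:54981248-54981465, plus strand: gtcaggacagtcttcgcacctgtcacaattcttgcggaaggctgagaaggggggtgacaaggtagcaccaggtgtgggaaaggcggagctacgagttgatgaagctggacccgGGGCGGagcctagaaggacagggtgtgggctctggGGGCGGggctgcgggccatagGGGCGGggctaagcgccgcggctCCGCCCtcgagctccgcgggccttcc
*Chrna3*, chr9:55026563-55026812, minus strand: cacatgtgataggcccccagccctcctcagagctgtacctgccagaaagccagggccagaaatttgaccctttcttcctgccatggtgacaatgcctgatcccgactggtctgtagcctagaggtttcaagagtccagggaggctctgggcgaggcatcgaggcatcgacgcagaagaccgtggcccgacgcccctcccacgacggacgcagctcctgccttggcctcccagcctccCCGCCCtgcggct
The 2 starts of *Chrna5* differ. The stretch before the first holds no GC box and its full window of 250 bases is 40% G and C, whereas the stretch before the second holds 4 GC boxes and its window is 65.2% G and C. *Drd2* holds 2 GC boxes and *Chrna3* 1. *Chrna4* holds 3 in its full window, 1 of them in the part shown. Of all 32851 windows of 250 bases before a start, 32.7% hold a GC box. Of the 38 windows of the receptors, 21 do. The letters TATAAA, searched on both strands, were in 1 receptor window, that of *Adra2a*, and in 12.4% of all windows. The letters TGACGTCA, the cyclic AMP response element, were in no receptor window and in 1.55% of all windows. A match describes the letters of the window and is not a measured site.

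Of the nicotinic subunits that are not among the 37 genes, 10 were in the table. *Chrnb3*, a subunit of habenular and dopaminergic neurons, had 9 and 34 counts, a ratio of 3.89 (1.83 to 9.22). *Chrna2*, which marks a class of hippocampal interneurons, had 22 and 39 counts, a ratio of 1.82 (1.06 to 3.23). *Chrna6*, also a subunit of dopaminergic neurons, had 0 and 15 counts, which against a floor of 3 counts per library is at least 5.15-fold higher, while the exact interval of the ratio, which also holds the counting error of the mutant value, starts at 3.69. Over all 16 nicotinic subunits, 12 had at least 10 counts, of which 8 had an interval above 1 and none below 1, beside 17.4% and 16.1% of all genes. Of these 8, *Chrna6*, *Chrnb3* and *Chrnb4* (7 and 30 counts) met the minimum of 10 only through the mutant library, where they were higher. The muscle subunits *Chrna1* (36 and 41 counts) and *Chrnb1* (55 and 66 counts) had intervals that include 1.

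Some markers of neighbouring regions that express these subunits also had more counts in the mutant library. Of 6 markers of the medial habenula, 5 had an interval above 1, beside 17.4% of all genes. One of them is the subunit gene *Chrnb3* given above, and *Slc5a7*, the choline transporter gene, had 13 and 14 counts and an interval that includes 1. Of the 5, *Chrnb3* (9 and 34 counts) and *Pou4f1* met the minimum of 10 only through the mutant library, where they were higher. Over the 6 markers the summed level was 5.99 FPKM in the control and 9.52 in the mutant. *Tac2*, a habenular tachykinin gene, was past 1.5-fold with 56 and 111 counts, while the habenular receptor gene *Gpr151* had 13 and 28 counts and the transcription factor gene *Pou4f1* 1 and 9. Of 8 markers of the thalamus, where *Chrna4* is abundant, 6 had an interval above 1, and their summed level was 16.6 and 28.7 FPKM. The intervals of *Lef1*, with 62 and 66 counts, and of *Tcf7l2* include 1. The thalamic markers past 1.5-fold were *Ramp3* (56 and 173 counts), *Rgs16* (135 and 248) and *Slc17a6*, the vesicular glutamate transporter VGLUT2 (316 and 527). *Tcf7l2*, the transcription factor that defines thalamic neurons, had 92 and 116 counts, and no marker of either list was at 0 in either library. The part of these regions in the nicotinic values was not tested.

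Dopamine receptors fall into the Gs-coupled D1 class, *Drd1* and *Drd5*, and the Gi/o-coupled D2 class, *Drd2*, *Drd3* and *Drd4*. *Drd5* was the most abundant, with 166 and 186 counts (2.71 and 3.12 FPKM), and its interval of 0.930 to 1.43 includes 1. *Drd2* had 23 counts in the control and 71 in the mutant (0.46 and 1.47 FPKM, log2 ratio 0.76), a ratio of 3.18 (1.96 to 5.33). *Drd1* had 38 and 65 counts (0.54 and 0.95 FPKM), a ratio of 1.76 (1.16 to 2.70). *Drd1* was thus at 1.17 times the level of *Drd2* in the control and at 0.646 times in the mutant. *Drd4* had 4 and 1 counts. *Drd3* had 0 counts in both libraries, which allows up to 0.0901 FPKM in the control and 0.0927 in the mutant (3 counts). *Drd5* shares 1531 bases, 48.6% of its exons, with the opposite-strand gene *Gm26560*, which had 19 and 15 counts.

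In the hippocampus *Drd2* is known from mossy cells of the dentate hilus, and elsewhere from striatal neurons. The 5 mossy cell markers did not differ as a list, with 905 and 906 counts in sum, and *Calb2* had 612 and 621. Of the 15 striatal markers, 5 had an interval above 1 and 3 below 1, beside 17.4% and 16.1% of all genes. Their summed level was 76.5 and 85.8 FPKM. The weak *Isl1* had 10 counts in the control and 0 in the mutant, and the weak *Six3* 5 and 30. *Isl1* met the minimum of 10 counts only through the control library, and *Six3* only through the mutant library. The defining marker *Adora2a*, the adenosine receptor of D2 neurons, had 31 and 36 counts. *Drd2* and *Drd1* were thus higher beside some striatal markers and not beside others, and the part of striatal tissue was not tested. *Ppp1r1b*, which encodes the dopamine-regulated phosphatase inhibitor DARPP-32, had 1176 and 1649 counts (20.6 and 29.8 FPKM), a ratio of 1.44 (1.34 to 1.56). Pituitary lactotrophs also express *Drd2*. The pituitary genes *Prl* and *Gh* had 236 and 70 counts in the control and 0 in the mutant. *Cga* had 9 and 0 counts and *Pitx1* 5 and 2, while *Pomc* had 13 and 18 and *Pou1f1* 0 and 5. The part of pituitary tissue was not tested.

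Among the serotonin receptors, *Htr1a*, the Gi/o-coupled receptor of pyramidal neurons and of serotonin neurons themselves, had the highest FPKM in both libraries. By counts, *Htr2c* was ahead of it in both, and by the length of the longest transcript as well. *Htr1a* had 811 and 838 counts (9.30 and 9.89 FPKM), and its interval of 0.964 to 1.17 includes 1. *Htr2c* and *Htr3a* came next and were closer to it in the mutant. *Htr2c*, a Gq-coupled receptor, had 904 and 1302 counts (4.98 and 7.38 FPKM, log2 ratio 0.49), a ratio of 1.48 (1.36 to 1.62). *Htr3a*, the obligatory subunit of the 5-HT3 channel, had 184 and 285 counts (4.54 and 7.24 FPKM, log2 ratio 0.57), a ratio of 1.59 (1.32 to 1.93). *Htr3a* was thus just within 1.5-fold on the scale of log2(FPKM + 1). Its partner *Htr3b*, not among the 37 genes, had 2 and 0 counts.

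*Htr2c* is highly expressed by the choroid plexus epithelium, the secretory lining of the ventricles, besides neurons. All 16 choroid plexus markers were past 1.5-fold higher in the mutant library, with a summed level of 175 and 3919 FPKM, and none was at 0 in either library. *Ttr*, which encodes transthyretin, had 2797 and 78546 counts. *Slc29a4*, which encodes the monoamine transporter PMAT and is also expressed there, was past 1.5-fold higher with 769 and 1212 counts (13.8 and 22.4 FPKM). *Htr2c* lies on the X chromosome, chrX:146962513-147197277. The part of choroid plexus RNA and of sex in the values of these genes was not tested. *Htr3a* is known from a class of interneurons. Of 11 interneuron markers, none was past 1.5-fold, 3 had an interval above 1 and 1 below 1, beside 17.4% and 16.1% of all genes. These markers had 455 and 475 FPKM in sum. *Gad1*, an enzyme gene of all inhibitory neurons, had 6314 and 6168 counts, and *Vip*, a marker of *Htr3a* neurons, had 345 and 381 counts.

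The remaining serotonin receptors lay below 5 FPKM. Of these, *Htr7*, a Gs-coupled receptor, had 177 and 235 counts (2.68 and 3.66 FPKM), a ratio of 1.37 (1.12 to 1.67). *Htr1b*, a presynaptic Gi/o-coupled receptor, had 159 and 206 counts (1.73 and 2.31 FPKM), a ratio of 1.33 (1.08 to 1.65). *Htr4*, a Gs-coupled receptor that supports learning in rodents, went the other way with 277 and 206 counts (2.90 and 2.22 FPKM), a ratio of 0.765 (0.636 to 0.920). By FPKM, the Gs-coupled receptors *Htr4* and *Htr7* therefore changed order, from rank 17 and 20 in the control to 21 and 16 in the mutant. Their intervals overlapped in the control (2.57 to 3.26 and 2.3 to 3.1 FPKM) and lay apart in the mutant (1.93 to 2.55 and 3.21 to 4.16). *Htr5b* (127 and 150 counts), *Htr5a* (345 and 332), *Htr2a* (296 and 313) and the weak *Htr1f* (36 and 28) had intervals that include 1. *Htr2b* had 9 and 4 counts and overlaps *Psmd1*, a proteasome gene with 2214 and 2250 counts, on the opposite strand. *Htr1b* shares 852 exonic bases with *D430036J16Rik*, an opposite-strand gene with 28 and 45 counts.

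*Htr6*, a Gs-coupled serotonin receptor that is not among the 37 genes, was past 1.5-fold lower, with 179 counts in the control and 92 in the mutant (3.93 and 2.08 FPKM), a ratio of 0.529 (0.407 to 0.684). It lies on chromosome 4 (chr4:139061108-139075570). A window reaching 10 Mb to either side of *Htr6* held 236 genes tested, *Htr6* itself included. Of these, 29 (12.3%) were past 1.5-fold lower and 10 higher, beside 3.16% and 3.65% of all genes. *Htr6* was the only gene past 1.5-fold among the 17 further receptors of these families, of which 2 reached the minimum of 1 FPKM. *Adrb3*, a beta adrenergic receptor gene best known from fat, had 37 and 9 counts.

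Adrenergic receptors were dominated by *Adra1d*, which held 69.9% of the family's summed FPKM in the control and 64.1% in the mutant. *Adra1d* had 1706 and 1473 counts, a ratio of 0.889 (0.828 to 0.953). *Adra2c*, a Gi/o-coupled receptor that restrains noradrenaline release, had 525 and 692 counts (7.83 and 10.6 FPKM, log2 ratio 0.40), a ratio of 1.36 (1.21 to 1.52). By FPKM *Adra2c* moved from rank 8 to rank 5, where its interval overlaps those of both neighbours, and by counts it held rank 9 in both libraries. Its close relative *Adra2a* did not share the difference in level, with 397 and 400 counts (4.22 and 4.38 FPKM) and an interval of 0.900 to 1.19. *Adrb1*, the Gs-coupled beta-1 receptor, had 352 and 353 counts (5.35 and 5.52 FPKM). *Adra1a* (187 and 154 counts) and *Adra1b* (86 and 96) are Gq-coupled like *Adra1d* and had intervals that include 1. *Adra2b* was near the limit of detection with 7 and 3 counts.

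Muscarinic receptors stood close to each other between the libraries, save for *Chrm4* and *Chrm5*. *Chrm1* had an interval of 0.95 to 1.03. *Chrm3*, also Gq-coupled, had 1234 and 1230 counts (10.2 and 10.4 FPKM), with an interval of 0.947 to 1.11. At this depth neither differed by more than its counting error. *Chrm4* had 425 and 345 counts, a ratio of 0.835 (0.723 to 0.965). *Chrm2*, the Gi/o-coupled M2 receptor of cholinergic terminals and interneurons, had 179 and 201 counts (1.52 and 1.76 FPKM) and an interval of 0.940 to 1.42. *Chrm5*, a Gq-coupled receptor, had 41 and 61 counts (1.32 and 2.02 FPKM), a ratio of 1.53 (1.01 to 2.33). *Chrm1* shares 329 exonic bases with *Gm22820*, which had 0 counts in both libraries.

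Histamine receptors were led by *Hrh3*, which held 88.6% of the family's summed FPKM in the control and 87.1% in the mutant. It had 1749 and 1585 counts, a ratio of 0.933 (0.871 to 0.999), whose upper bound is close to 1. *Hrh1*, Gq-coupled, had 172 and 160 counts (1.99 and 1.9 FPKM), with an interval of 0.767 to 1.19. *Hrh2*, Gs-coupled, had 196 and 231 counts (1.70 and 2.06 FPKM), with an interval of 0.998 to 1.47. *Hnmt*, which encodes the enzyme that inactivates histamine in brain, had 259 and 191 counts (7.53 and 5.71 FPKM), a ratio of 0.759 (0.626 to 0.918).

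The genes that make, carry and break down these transmitters differed widely in level. Of 24 such genes, 7 reached 1 FPKM, 1 of them was past 1.5-fold higher (*Slc29a4*) and none lower. Over all genes tested the shares were 3.65% and 3.16%. *Th*, tyrosine hydroxylase, had 17 and 14 counts, *Tph2*, the serotonin-synthesizing enzyme of brain, 14 and 18, and *Chat*, choline acetyltransferase, 4 and 3. *Ache*, acetylcholinesterase, was abundant with 1449 and 1615 counts (16.1 and 18.5 FPKM), a ratio of 1.15 (1.07 to 1.23). *Maoa* and *Maob*, the monoamine oxidase genes, had 414 and 407 counts and 485 and 433 counts.

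Downstream of the receptors, the lists stayed close to the median of all genes. Over all genes tested, 3.65% were past 1.5-fold higher and 3.16% lower. With an FPKM of at least 5 the shares were 1.98% and 1.5%. The numbers of calls in lists of this size cannot be told apart from these shares. None of 18 G protein subunit genes tested was past 1.5-fold (median log2 ratio -0.02), although *Gnas*, the Gs alpha subunit, had 11675 and 13773 counts, a ratio of 1.21 (1.18 to 1.24). None of 29 genes of cyclic AMP and phospholipase C signalling was past 1.5-fold (median 0.01). Of 17 genes of receptor kinases, arrestins and RGS proteins, which end G protein signals, *Rgs16* was past 1.5-fold higher and none was lower (median -0.02). None of 8 chaperones and Ly6 modulators of nicotinic receptors was past 1.5-fold (median 0.00). *Lynx1*, a brake on nicotinic receptors, had 10795 and 10700 counts, and *Ric3*, a chaperone of alpha7, 1762 and 1707.

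**Figure D4:**
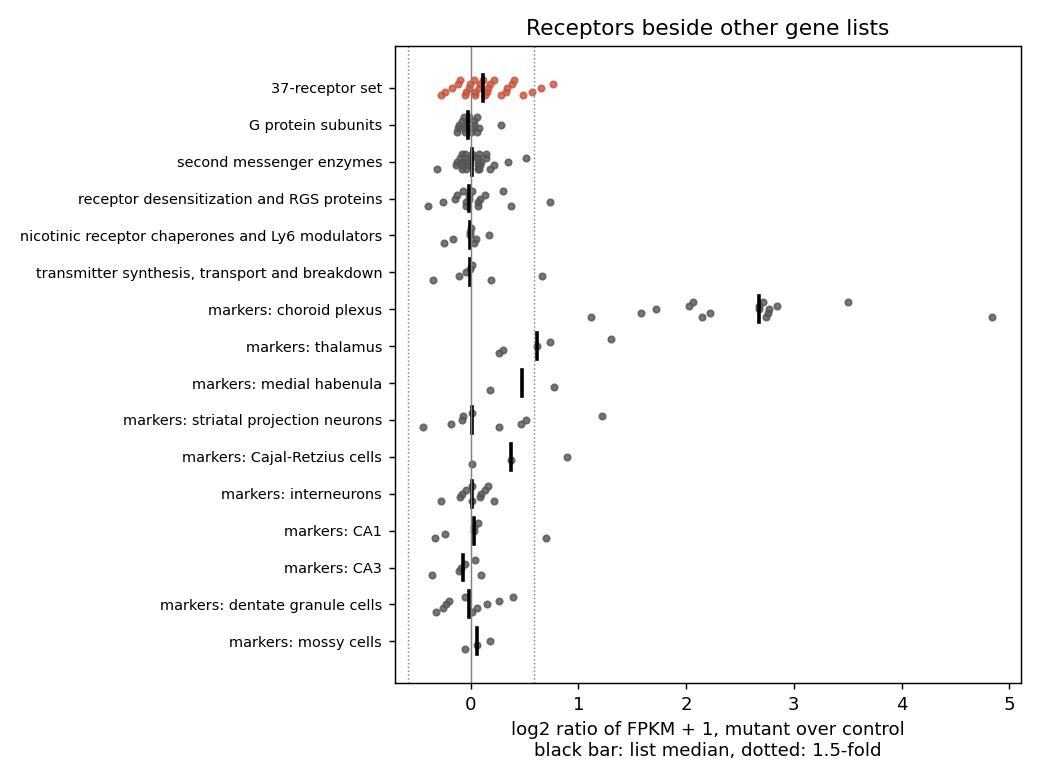
Log2 ratio of FPKM + 1, mutant over control, of each gene with at least 1 FPKM in at least 1 library, for the receptors (red) and for other gene lists (grey), with the list median as a black bar and 1.5-fold as dotted lines. The receptor median is 0.11 and that of the choroid plexus markers 2.68, while the lists of signalling genes centre near 0.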

How the data were processed

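RNA of hippocampal tissue was sequenced in 2 libraries. The authors deposited raw counts per gene and FPKM, and their FPKM equals the count scaled by exonic length and by the sum of all counts in all 55573 rows of both libraries (tolerance 0.0051). Per the submitters' processing notes, whose tools have no stated roles, HTSeq 0.6.1, HISAT2 2.0.1, cutadapt 1.9.1, DESeq2 and build mm9 were used. The coordinates of all 37 receptors equal those of GRCm38 in GENCODE M21 and are printed as such. The sources used here give no strand setting.

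From the deposited values, log2((FPKM + 1) mutant over control), exact conditional (Clopper-Pearson) 95% intervals of the count ratio and exact Poisson 95% intervals were computed. A symbol held by several rows was read from the row with more counts. The edgeR quasi-likelihood test needs replicates and was not run. BLAST 2.17.0 found no copy of a receptor at 95% identity over 200 bases other than overlapping genes. The steps were tested on simulated data. The receptors and the lists of signalling and marker genes were chosen with earlier results of these data known. All 37 receptors are named, and of each list up to 4 genes past 1.5-fold and its first marker. A result that would fall under this rule is not reported here. Other genes, such as *Pou4f1*, *Vip*, *Gnas*, *Ache*, *Lynx1* and *Adrb3*, the window around *Htr6* and the promoter sequences shown were chosen after their values were seen. Alternatives were another pseudocount, FPKM minimum, scale (edgeR 4.0.16 TMM, median of ratios) and fold. Tables were handled with pandas 2.3.3, intervals with scipy 1.17.1 and numpy 2.4.6 under Python 3.11.15, and plots with matplotlib 3.10.9.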

Additional observations from a re-analysis of the deposited data

How the results depend on the processing

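The number of receptors past 1.5-fold higher, 2 as reported, depended on the settings. It was 4 of 29 with a pseudocount of 0.1 (*Htr3a* and *Chrna5* besides *Drd2* and *Chrna4*), beside 6.29% of all genes tested. With an FPKM of at least 5 it was 1 of 13 (*Chrna4*), beside 1.98%, and at 2-fold 0 of 29, beside 1.62%. It was 2 of 36 without a minimum, beside 2.72%, and 2 of 29 under each of the 3 other scales, beside 3.54% to 3.69%. No receptor was past the threshold lower in any of these settings. Called by the counting interval, a rule added after the data were seen, 13 of 35 receptors were higher and 4 lower. The shares over all genes were 17.4% and 16.1%. With a pseudocount of 0.1, 929 of all genes were higher and 807 lower, instead of 539 and 467. At an FPKM of at least 5, where 8423 instead of 14778 genes were tested, the numbers were 167 and 126. At 2-fold they were 239 and 201. The scales moved the mutant values by a factor between 0.9923 and 1.0027. Of 198 recomputed log2 ratios of receptors none reversed. Another pseudocount or minimum cannot turn the sign of a ratio, and the scales differed little. The absence of reversals is therefore no check of direction. Leaving out a library was not possible with 1 per genotype. No paired analysis was possible because each genotype has 1 library. Among counts of calls in the other lists, 287 of 300 stayed within 1.5 times and 13 moved. Genes under about 100 counts, such as *Drd2*, *Chrna3* and *Chrnb4*, have wide intervals even for counting error alone.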

Other observations

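Markers of hippocampal fields that carry many of the receptors were mixed. Over all genes tested, 3.65% were past 1.5-fold higher and 3.16% lower. Of 6 markers of CA1, the field rich in *Chrm1*, *Wfs1* was past 1.5-fold higher with 2422 and 3871 counts, and *Fibcd1* had 4113 and 3364. Of 6 CA3 markers, 5 CA2 markers and 10 dentate granule cell markers, the number past 1.5-fold was 0, with median log2 ratios of -0.07, 0.20 and -0.02. *Grik4*, a kainate receptor gene of CA3, had 1662 and 1483 counts, *Rgs14*, of CA2, 2353 and 1890, and *Prox1*, which defines granule cells, 2046 and 1556.

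Markers of Cajal-Retzius cells, early-born neurons of the hippocampal fissure, had 3 of 5 intervals above 1 and none below, beside 17.4% and 16.1% of all genes. Of these, *Trp73* was past 1.5-fold higher with 66 and 207 counts, while *Reln* had 1300 and 1757. Among cortical markers *Ccn2* (160 and 363 counts) and *Cplx3* (67 and 136), which mark the deepest layer, were past 1.5-fold higher, and *Rspo1* (106 and 13) was lower. *Tbr1*, a cortical transcription factor gene, had 1248 and 1290 counts. Of 7 astrocyte markers, 9 endothelial markers, 7 mural cell markers and 6 oligodendrocyte markers, none was past 1.5-fold. Over all genes tested the shares were 3.65% higher and 3.16% lower. The medians of these 4 lists were -0.15, -0.01, 0.05 and 0.02. The first marker of each had 2360 and 2056 (*Aqp4*), 701 and 482 (*Cldn5*), 514 and 414 (*Pdgfrb*) and 51352 and 47840 counts (*Mbp*). By the counting interval, 0 astrocyte markers lay above 1 and 4 below, and 2 endothelial markers above and 3 below. For mural cells the numbers were 3 and 2, and for oligodendrocytes 1 and 2, beside 17.4% and 16.1% of all genes. Of 7 microglia markers *Aif1* was past 1.5-fold lower (187 and 101 counts) and *Cx3cr1* had 828 and 714. Of 5 ependymal markers *Tmem212* was past 1.5-fold lower (47 and 25) and *Foxj1* had 266 and 395. Among these 5, 4 had a log2 ratio above 0, and the summed level was 16.2 FPKM in the control and 19.7 in the mutant. Of the 6 pituitary markers the 2 tested, *Prl* and *Gh*, were both lower, and of 15 mitochondrial genes tested none was past 1.5-fold (median -0.11).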
